A study of Mus musculus musculus x Mus musculus castaneus with 12 samples.

Results

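Cdx2, Gata3, Elf5, Tfap2c, Hand1, Krt8, Krt18 and Krt19 are 8 of the 24346 genes in the expression files of hybrid mouse embryonic stem (ES) cells with and without Kdm6a. They were taken by symbol, as 5 transcription factors of the trophoblast and 3 keratins of simple epithelia, and all 8 symbols were found. The X-linked gene Kdm6a codes for a demethylase of lysine 27 of histone H3, and it was deleted with CRISPR/Cas9 in male F1 ES cells of a BL6 x cast cross (BC) and of the reciprocal cast x BL6 cross (CB). The comparisons asked whether the level of each gene differed between the Kdm6a clones and the wild-type (wt) cells of the same cross, between the 2 crosses, and between female and male wt cells.

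The 12 mRNA libraries comprised 2 of male BC wt cells, 3 of male BC knockout (KO) clones (ΔE1, ΔE3 and ΔP4), 2 of female BC wt cells, 2 of male CB wt cells, and 1 each of the male CB clones ΔP2.1, ΔE2.5 and ΔE2.7. The ΔE clones lack the stretch between exons 2 and 4 of Kdm6a, and the ΔP clones lack the promoter with exons 1 and 2. All cells were grown with serum and leukemia inhibitory factor on inactivated mouse embryonic fibroblasts, which were reduced by letting them attach to gelatin before use. Each KO library is 1 clone, and ΔE1 and ΔE3 came from the same editing event, so the 3 BC clones stand for 2 events. The CB wt line carried an actin-GFP transgene, and the CB libraries held 49975599 to 53407103 reads against 68457338 to 89070402 in the BC libraries. The cross, the cell line, the transgene and the depth therefore cannot be told apart in any comparison of CB with BC cells. Sex and cell line likewise cannot be told apart in the comparison of female with male BC wt cells. The 2 CB wt libraries were more alike than the other wt pairs, since 11.7% of genes with at least 50 reads differed between them beyond sampling noise (a chi-square test of each gene at the 95% level), against 46.8% for male and 38.1% for female BC wt. Their small spread may be technical, and p-values measure only the spread between these libraries. Levels are given in TPM (transcripts per 1000000), which are scaled for transcript length and library size and so can be compared between genes.

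In the early mouse embryo, Cdx2, Gata3, Elf5, Tfap2c and Hand1 act in the trophectoderm and its descendants, the lineage that forms the placenta, while ES cells stand for the inner cell mass. Cdx2 and the ES cell factor Oct4 (Pou5f1) are known to repress each other. Krt8 is a type II keratin that pairs with the type I keratins Krt18 and Krt19 to build the filaments of simple epithelia, of which the trophectoderm is the earliest in development.

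The guides that define the KO clones are shown because every comparison with wt rests on them. Each line gives the guide 5′ to 3′ in lower case, with the adjoining PAM in capitals.
ΔE Left: gaaacctcacgaacccgaaaAGG
ΔE Right: tagcattatctgcataccagAGG
ΔP Left: ggacactgcatgtttgatggAGG
ΔP Right: agctacatactccaaaggagAGG
The ΔE Left guide without its PAM matched exon 2 of Kdm6a on the minus strand at chrX:18163390-18163409 (GRCm38). The other guides could not be placed, because no genome sequence was at hand. Kdm6a itself (ENSMUSG00000037369.17) lies on the plus strand at chrX:18162575-18279936.

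The Kdm6a level went with the labels in every library. It was 49.9 and 51.3 TPM in the male BC wt libraries, 51.1 and 51.8 TPM in the male CB wt libraries, and 65.0 and 65.1 TPM in the female libraries. In the clones it was 11.6 TPM (ΔE1), 13.5 TPM (ΔE3), 0.0441 TPM (ΔP4), 2.07 TPM (ΔE2.5), 7.29 TPM (ΔE2.7) and 0.0365 TPM (ΔP2.1). The cells also matched their label as ES cells, since all 9 ES cell markers were above 1 TPM in all 12 libraries and Pou5f1 ranged from 2072 to 3788 TPM.

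Cdx2 (ENSMUSG00000029646.3, chr5:147300805-147307270, minus strand) codes for the caudal-type homeobox factor that the trophectoderm needs. It was at 2.59 and 2.16 TPM in male BC wt cells, and at 3.84 TPM (ΔE1), 1.32 TPM (ΔE3) and 3.59 TPM (ΔP4). In CB cells it was at 5.78 and 5.82 TPM in wt, 4.82 TPM (ΔE2.5), 19.8 TPM (ΔE2.7) and 4.19 TPM (ΔP2.1). ΔE2.7 thus stood at 3.41 times the mean of its wt libraries, whereas the other 2 CB clones lay below both wt values, and the BC clones fell on both sides of wt. Female BC cells had the lowest Cdx2 level, with 0.259 and 0.217 TPM.

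Gata3 (ENSMUSG00000015619.10, chr2:9857078-9890034, minus strand), a GATA factor that acts beside Cdx2 in the trophectoderm, was at 0.587 and 0.626 TPM in male BC wt cells. The BC clones had 1.09 TPM (ΔE1), 0.647 TPM (ΔE3) and 0.601 TPM (ΔP4), so Gata3 passed the level filter in BC only through ΔE1. It was at 2.05 and 2.64 TPM in CB wt cells, 1.69 TPM (ΔE2.5), 2.14 TPM (ΔE2.7) and 3.99 TPM (ΔP2.1). All 5 CB libraries lay above all 5 male BC libraries. In the female libraries Gata3 was at 0.155 and 0.188 TPM.

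Elf5 (ENSMUSG00000027186.14, chr2:103411688-103450989, plus strand), an ETS factor that maintains trophoblast stem cells, was hardly detected. It had 3 to 40 reads a library and between 0.0388 and 0.488 TPM, where 3 reads correspond to 0.0347 to 0.0641 TPM. The highest value, 0.488 TPM, was in ΔE1, and no other library reached 0.25 TPM (the next was CB wt replicate 2 at 0.231 TPM). Elf5 never passed the filter of more than 1 TPM in at least 1 library. Fitted without that filter, its log2 fold change was 0.95 ± 1.01 (SE) in BC KO and −0.61 ± 0.58 in CB KO, with FDR of 0.771 and 0.605 in the quasi-likelihood test of edgeR.

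Tfap2c (ENSMUSG00000028640.11, chr2:172549593-172558622, plus strand), an AP-2 factor of trophoblast and germ cells, was the most abundant of the 5 factors in every library. It was at 51.5 and 47.2 TPM in male BC wt cells, 84.1 TPM (ΔE1), 44.0 TPM (ΔE3) and 68.2 TPM (ΔP4). CB wt cells had 51.8 and 50.4 TPM, ΔE2.5 had 52.3 TPM, ΔE2.7 had 80.9 TPM and ΔP2.1 had 50.04 TPM, and female cells had 51.4 and 56.1 TPM. The wt values of all 3 kinds of cells lay between 47.2 and 56.1 TPM, and only ΔE1, ΔP4 and ΔE2.7 exceeded that range.

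Hand1 (ENSMUSG00000037335.13, chr11:57828705-57832818, minus strand), a helix-loop-helix factor of trophoblast giant cells and of mesoderm, was at 1.36 and 1.22 TPM in male BC wt cells. ΔE1 had 7.71 TPM, 5.98 times the wt mean, while ΔE3 had 0.888 TPM and ΔP4 had 1.19 TPM. In CB cells Hand1 was at 4.38 and 5.24 TPM in wt, 2.79 TPM (ΔE2.5), 4.57 TPM (ΔE2.7) and 4.40 TPM (ΔP2.1). Female cells had 3.03 and 3.16 TPM, between the male wt cells of the 2 crosses.

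Krt8 (ENSMUSG00000049382.10, chr15:101996698-102004482, minus strand) was at 27.3 and 33.5 TPM in male BC wt cells, 62.4 TPM (ΔE1), 6.48 TPM (ΔE3) and 35.7 TPM (ΔP4). CB cells had 529.6 and 526.6 TPM in wt, 160.1 TPM (ΔE2.5), 311 TPM (ΔE2.7) and 409 TPM (ΔP2.1). Female BC cells had 14.6 and 17.7 TPM. The lowest CB clone therefore lay above the highest BC library, and the 3 CB clones lay below both of their wt libraries.

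Krt18 (ENSMUSG00000023043.7, chr15:102028180-102032027, plus strand), which neighbours Krt8 on chromosome 15, showed the same order of libraries at a higher level. It was at 79.6 and 86.3 TPM in male BC wt cells, 185 TPM (ΔE1), 21.6 TPM (ΔE3), 102 TPM (ΔP4), and 47.6 and 51.3 TPM in female cells. In CB cells it was at 1128 and 1120 TPM in wt, 291 TPM (ΔE2.5), 584 TPM (ΔE2.7) and 747 TPM (ΔP2.1). In the CB wt libraries Krt18 was higher than 99.7% of all genes in the files.

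Krt19 (ENSMUSG00000020911.14, chr11:100140810-100148665, minus strand), a type I keratin encoded elsewhere, was at 11.6 and 11.8 TPM in male BC wt cells, 15.2 TPM (ΔE1), 2.15 TPM (ΔE3) and 15.5 TPM (ΔP4). CB cells had 129 and 121 TPM in wt, 40.2 TPM (ΔE2.5), 66.2 TPM (ΔE2.7) and 92.3 TPM (ΔP2.1). Unlike Krt8 and Krt18, Krt19 was higher in female than in male BC wt cells, with 48.8 and 53.2 TPM. Since RNA was taken from bulk cultures, fewer cells with a keratin and less keratin RNA per cell cannot be told apart.

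**Figure D1:**
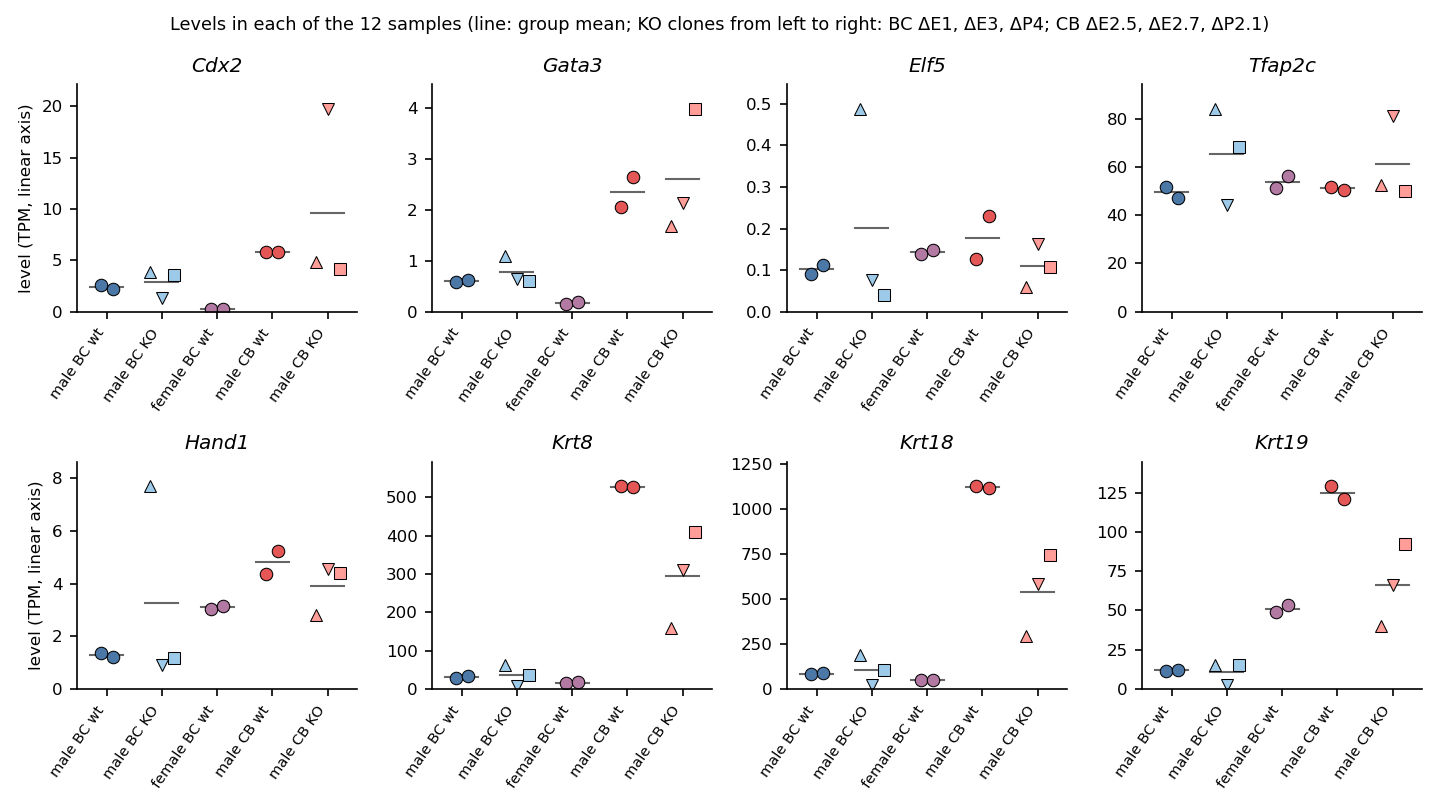
Level of each of the 8 genes in TPM (linear axes that start at 0) in the 12 libraries, grouped by cross, sex and genotype, with circles for wt libraries, triangles and squares for KO clones in the order given in the title, and a line at each group mean. The 3 keratins reach 526.6 to 529.6 TPM (Krt8), 1120 to 1128 TPM (Krt18) and 121 to 129 TPM (Krt19) in CB wt cells, with all 3 CB clones below them, while in BC cells ΔE1 and ΔE3 lie on opposite sides of wt.

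With 1 library a clone, no test was possible for a clone by itself, and a gene was counted when it was past 1.5-fold on the log2(TPM + 1) scale and outside both wt values. Of the 7 genes that passed the filter (all but Elf5), ΔE1 had 4 past 1.5-fold higher (Tfap2c, Hand1, Krt8 and Krt18) and none lower, where 3.35% of 13804 genes were counted higher and 3.53% lower. ΔE3 had none higher and all 3 keratins lower, where 6.35% of genes were counted higher and 8.09% lower. ΔP4 had none in either direction (7.36% of genes higher and 2.45% lower). The added 1 TPM kept some low genes from being counted. By TPM alone, Cdx2 was at 1.62 (ΔE1), 0.557 (ΔE3) and 1.51 (ΔP4) times the wt mean. Gata3 was at 1.79 times in ΔE1, and all these values lay outside both wt values.

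In the CB cross, ΔE2.5 had 4 genes past 1.5-fold lower (Hand1 and the 3 keratins), and none higher, where 10.6% of 13801 genes were counted lower and 3.82% higher. ΔE2.7 had 2 higher (Cdx2 and Tfap2c, background 4.20%) and the 3 keratins lower (background 8.89%). ΔP2.1 had only Krt18 lower (background 5.81%), at 0.665 times the wt mean, and none higher (background 2.19%). That count rested on the scale, because with TMM-scaled CPM or another transcript length Krt18 dropped out and Gata3, at 1.70 times wt, was counted higher.

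ΔE1 and ΔE3, which share a deletion, lay on opposite sides of wt. In ΔE1 the 7 genes that passed the filter were above both wt libraries, where 44.0% of genes were above and 37.7% below, but Gata3 passed only through ΔE1 and so had to be above. In ΔE3 all but Gata3 were below both, where 41.2% of genes were below and 45.0% above. The level in ΔE1 was 9.64 times that in ΔE3 for Krt8, 8.60 times for Krt18, 7.08 times for Krt19 and 8.69 times for Hand1, but 1.91 times for Tfap2c. In the CB cross ΔE2.7 exceeded ΔE2.5 by 1.94 times for Krt8, 2.00 times for Krt18, 1.65 times for Krt19 and 4.10 times for Cdx2.

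**Figure D2:**
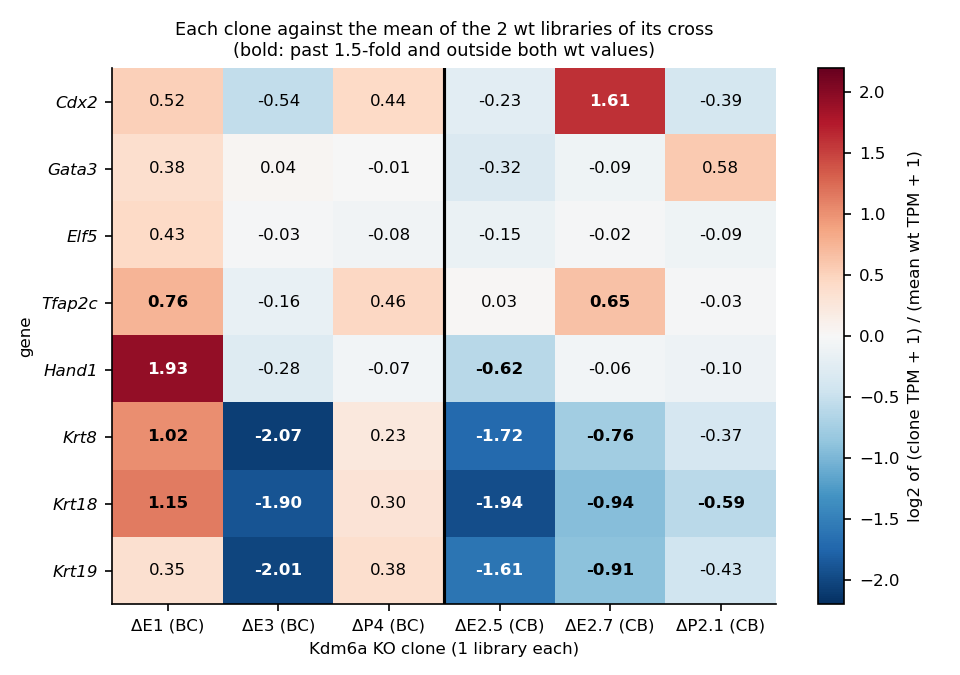
Log2 ratio of each clone to the mean of the 2 wt libraries of its cross, both as TPM + 1, for the 8 genes (rows) in the 6 clones (columns, 1 library each). Red is higher and blue lower than wt, and bold marks ratios past 1.5-fold and outside both wt values. Krt8, Krt18 and Krt19 share a sign within each clone, from −2.07 for Krt8 in ΔE3 to 1.15 for Krt18 in ΔE1, and Hand1 in ΔE1 (1.93) and Cdx2 in ΔE2.7 (1.61) are the highest ratios.

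Fitted over the clones of a cross, none of the 7 genes tested passed FDR 0.05 with a change of at least 1.5-fold in BC KO against wt (edgeR quasi-likelihood test, 3 clones against 2 wt libraries). The FDR ranged from 0.633 for Tfap2c to 0.952 for Krt8, and none of the 7 reached an unadjusted p under 0.05, where 6.56% of genes did so as higher and 4.49% as lower. Without ΔE3 that count was 3 of 7. In that comparison 0.00724% of 13804 genes were called higher and 0.0217% lower. The fitted log2 fold change was 0.15 ± 0.74 (SE) for Krt8, 0.27 ± 0.71 for Krt18, −0.15 ± 0.68 for Krt19 and 1.31 ± 0.93 for Hand1. Without ΔE1, the estimate for Hand1 became −0.37 and that for Krt8 became −0.61, so their sign rested on that clone.

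In CB KO against wt the 3 keratins fitted lower, by −0.77 ± 0.36 (SE) for Krt8, −0.98 ± 0.37 for Krt18 and −0.84 ± 0.32 for Krt19 on the log2 scale. None of the 7 genes tested passed, with FDR of 0.301, 0.226 and 0.230 for these 3 in edgeR. No gene at all was called in this comparison (0.00% of 13801). At an unadjusted p under 0.05 Krt18 and Krt19 were lower and none was higher, where 10.0% of genes were higher and 10.5% lower. That count of 2 became 0 without ΔE2.7 or either wt library and 3 without ΔE2.5 or ΔP2.1. DESeq2 called 160 genes higher and 332 lower but none of the 7, with FDR of 0.154 for Krt8, 0.0552 for Krt18 and 0.0838 for Krt19. Without ΔP2.1, edgeR called 362 genes higher and 566 lower, again with none of the 7, and gave FDR of 0.105 for Krt8, 0.0848 for Krt18 and 0.0592 for Krt19.

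Each keratin was lower in all 3 CB clones than in both CB wt libraries, but 32.3% of all genes tested in that cross were lower without overlap too (14.7% were higher). The fitted changes of Cdx2 (0.81 ± 0.74 SE), Gata3 (0.22 ± 0.40), Tfap2c (0.34 ± 0.23) and Hand1 (−0.22 ± 0.28) had edgeR FDR of 0.440 to 0.778. Without ΔE2.7 the estimate for Cdx2 became −0.30. The difference between the KO effects of the 2 crosses was tested as an interaction and passed for none of the 7 genes, with edgeR FDR from 0.492 (Hand1) to 0.969 (Tfap2c), where 0.0490% of 14297 genes were called higher and 0.0140% lower. That difference (CB minus BC) was −0.94 ± 0.95 (SE) for Krt8, −1.26 ± 0.92 for Krt18 and −0.70 ± 0.86 for Krt19.

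For the 3 keratins the wt cells of the 2 crosses differed more than any clone did from its wt. CB wt against BC wt gave 6 of the 7 tested genes as higher and none as lower, where edgeR called 19.8% of 13827 genes higher and 14.7% lower. Krt8 was 16.6-fold higher (log2 4.05 ± 0.10 SE, FDR 8.84e-07), Krt18 12.9-fold (3.69 ± 0.06, FDR 4.29e-07) and Krt19 10.2-fold (3.35 ± 0.06, FDR 4.29e-07). Over all runs of this comparison the log2 fold change was 3.75 to 4.21 for Krt8 and 3.62 to 3.76 for Krt18. The diploid count of Krt8 was a smaller share of its BL6-genome count in BC than in CB libraries, so the size of its fold depends on the counting. Gata3, which passed the filter here only through the CB libraries and so had to differ, was 3.68-fold higher (FDR 0.00015), Hand1 3.56-fold (FDR 7.82e-05) and Cdx2 2.33-fold (FDR 0.000144). Tfap2c, at −0.02 ± 0.05 on the log2 scale, did not pass (FDR 0.783). Over genes above 1 TPM in both lines, 5 of 6 were called higher, where 17.4% of 12799 genes were higher and 13.4% lower.

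When all 12 libraries shared 1 estimate of the spread, Krt8, Krt18 and Krt19 were still called, as was Gata3 with the limit given above, but Cdx2 (FDR 0.181) and Hand1 (FDR 0.100) were not. Over the 10 male libraries, with KO clones included, Cdx2, Gata3, Krt8, Krt18 and Krt19 were higher in all 5 CB libraries than in all 5 BC libraries, where this held for 14.8% of 14297 genes, and 13.6% were lower without overlap.

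Female BC wt cells differed from male BC wt cells in 5 of the 6 genes tested, where 24.5% of 14049 genes were called higher and 19.9% lower in female cells. Over genes above 1 TPM in both sexes, which leaves out Cdx2, 2 of 5 were called higher and 2 lower. Among all 12737 such genes, 21.2% were higher and 18.8% lower. Krt19 was 4.19-fold higher (edgeR log2 2.07 ± 0.08 SE, FDR 5.80e-09) and Hand1 2.30-fold higher (FDR 4.62e-05). Cdx2, which passed the filter here only through the male libraries, was 10.2-fold lower (FDR 2.65e-07), Krt8 1.96-fold lower (FDR 2.33e-05) and Krt18 1.75-fold lower (FDR 3.77e-06), and Tfap2c did not pass (0.07 ± 0.08, FDR 0.453). With the spread shared over all 12 libraries only Krt19 and, with the limit of the filter just given, Cdx2 were still called. Gata3 was under the filter in this comparison, and without the filter it was called lower (log2 −1.89 ± 0.26, FDR 5.00e-05). These 2 male wt libraries are also the controls of the BC clones and of the cross comparison.

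**Figure D3:**
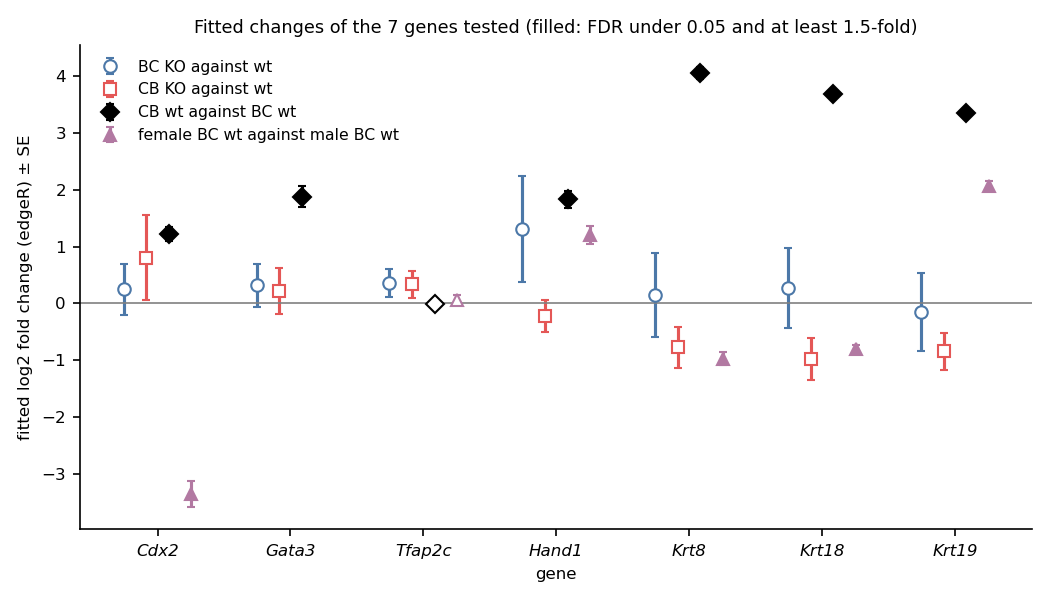
Fitted log2 fold change with its standard error (edgeR) for the 7 genes tested, in BC KO against wt, CB KO against wt, CB wt against BC wt and female against male BC wt, with filled symbols where FDR was under 0.05 and the change at least 1.5-fold. All KO symbols are open, and filled symbols reach 4.05 (Krt8, CB wt against BC wt) and −3.35 (Cdx2, female against male). Gata3 has no symbol for the female comparison, where it was under the filter.

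The keratins kept different proportions in the different lines. The ratio of Krt19 to Krt18 was 1.03 and 1.04 in the female libraries and 0.0819 to 0.152 in the 10 male libraries, so these ranges did not overlap. The ratio of Krt8 to Krt18 was 0.300 to 0.388 in the 7 BC libraries and 0.469 to 0.549 in the 5 CB libraries. The Krt8 ratio depended on the counting, because the diploid count of Krt8 was 67.8% to 73.9% of its count on the BL6 genome alone in BC libraries and 90.4% to 91.4% in CB libraries. From the counts on the BL6 genome, BC libraries had ratios of 0.425 to 0.515 and CB libraries of 0.508 to 0.592, which overlap. The annotation also holds Krt8-ps, a processed pseudogene of Krt8, which is not among the genes of the files.

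**Figure D4:**
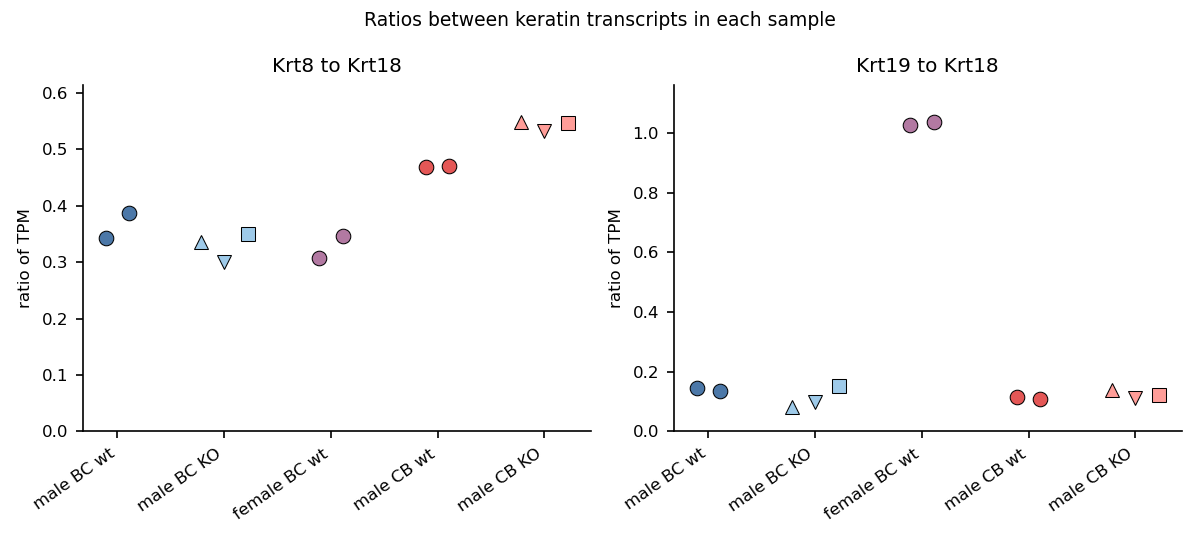
Ratio of Krt8 to Krt18 (left) and of Krt19 to Krt18 (right), both of TPM on axes that start at 0, in the 12 libraries by group, with circles for wt libraries and triangles and squares for clones. The Krt19 ratio is 1.03 and 1.04 in female cells and at most 0.152 elsewhere.

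Reads over SNPs between BL6 and cast gave the share of each allele. A share was given where a library had at least 20 such reads, and its 95% Wilson interval covers counting error only. For Tfap2c the BL6 share was 61.7% to 69.3% in male BC libraries, 57.3% and 58.2% in female libraries and 73.4% to 81.0% in CB libraries, on 685 to 1487 reads. The highest Tfap2c share (81.0%, CB wt replicate 2) had an interval of 78.1% to 83.6%. The autosomal share was 54.2% to 55.4% in male BC, 45.6% and 45.5% in female and 53.2% to 55.8% in CB libraries. Uncorrected shares of female and male libraries therefore cannot be compared directly. Corrected by the autosomal ratio, the Tfap2c share was 57.8% and 57.3% in male BC wt and 57.4% to 65.4% in the BC clones. It was 62.4% and 61.6% in female and 70.8% to 78.3% in CB libraries.

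Both alleles of the keratins were read in every library. The BL6 share was 49.8% to 68.3% for Krt8, 42.4% to 68.1% for Krt18 and 51.0% to 61.2% for Krt19. The lowest Krt18 share, in ΔE3, rested on 85 reads with an interval of 32.4% to 53.0%. For Krt8 the 2 CB wt libraries had 63.6% (62.6% to 64.6%) and 57.7% (56.7% to 58.7%), so this share moved beyond counting error between libraries of the same line. In the ΔE2.7 clone, where Cdx2 was highest, the Cdx2 share was 48.0% (38.3% to 57.7%) on 98 reads, with the autosomal share at 53.2%. Hand1 and Elf5 had too few SNP reads in every library.

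The chromosomes that hold the 8 genes lay near the median of all genes in each clone. The median log2 ratio to wt lay between −0.11 and 0.08 on chromosomes 2, 5 and 11 in the 6 clones and between −0.07 and 0.09 on chromosome 15, beside medians over all genes of −0.08 to 0.09. Other chromosomes were shifted, with medians of −0.42 (ΔE1) and −0.46 (ΔE3) on chromosome 8 and 0.39 (ΔE2.5) and 0.32 (ΔE2.7) on chromosome 1, and the part of these shifts in the levels of the 8 genes was not tested.

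The patterns of the 8 genes over the 10 male libraries were described by Pearson's r of log2(TPM + 1), centred on the wt mean of each cross. These points share libraries and controls, and 4 of the 10 are the wt libraries, so r is given as a description. Krt8 and Krt18 had r = 0.99, Krt8 and Krt19 0.97, Cdx2 and Tfap2c 0.84 and Hand1 and Krt18 0.73, but Cdx2 and Gata3 −0.15. Among 3409 genes with a mean of at least 5 TPM that were past 1.5-fold in at least 1 clone, Krt18 was the most like Krt8 and Krt8 the most like Krt18. Slc5a5, the sodium-iodide symporter, came next for both (0.98 and 0.97). After Slc5a5 came Tagln for Krt8 (0.98) and Clu for Krt18 (0.97). Krt19 was most like Dsp (0.99), which codes for the desmosomal protein desmoplakin that anchors keratin filaments, but Mbp (0.99) and Clu (0.98) were close behind. Cdx2 was most like Cfc1 (0.95), a co-receptor of Nodal signalling, Hand1 most like the imprinted growth factor gene Igf2 (0.96), Tfap2c most like Efna3 (0.95), an ephrin ligand, and Gata3 most like Anxa8 (0.92), an annexin.

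Other genes of the trophoblast were read from a list of 20. None of the 13 tested in BC KO and none of the 14 tested in CB KO were called, and their median log2 fold change was −0.02 in BC and −0.16 in CB, against 0.01 over all genes in each. The most abundant by their mean over the 12 libraries were Id2, an inhibitor of helix-loop-helix factors (114 TPM), Lgals3, a galectin (63.1 TPM), and Bmp4, a signalling ligand (45.5 TPM). In the female libraries Lgals3 was the most abundant (113 and 119 TPM), with Id2 at 27.0 and 25.5 TPM. Tead4, the TEAD factor that acts upstream of Cdx2, had a log2 fold change of 0.71 ± 0.20 (SE) in BC KO (edgeR FDR 0.350), and Dlx3 had 0.73 ± 0.39 in BC KO (FDR 0.533) and −0.66 ± 0.17 in CB KO (FDR 0.165). In CB wt against BC wt 6 of the 13 that were above 1 TPM in both lines were called higher and 0 lower, with a median of 0.58, where 17.4% of such genes were called higher and 13.4% lower. In female against male BC wt cells 7 of the 12 above 1 TPM in both were higher and 2 lower, where 21.2% of such genes were higher and 18.8% lower.

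Genes of the differentiated placenta were read from 7 markers. Of these, Ctsq and Synb had no reads in any library, and Prl3d1 (0.062 TPM (ΔP2.1)) and Tpbpa (0.0181 TPM in female replicate 1) had reads in only 1 library each. Gcm1 was the most abundant of the 7 in every library and the only one above 1 TPM, with 0.530 to 7.66 TPM. The summed level of the 7 was 5.49 and 5.46 TPM in male BC wt, 6.05, 3.36 and 3.18 TPM (ΔE1), ΔE3 and ΔP4, and 8.11 and 7.79 TPM in CB wt cells, with 4.62, 4.44 and 6.84 TPM (ΔE2.5), ΔE2.7 and ΔP2.1 and 1.05 and 0.996 TPM in female cells. All 7 are also in the list of 20.

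Of 10 other epithelial keratins, 4 were tested in BC KO and 5 in CB KO, and none were called. Krt7, a type II keratin that is often found with Krt19, was at 1.79 and 1.83 TPM in BC wt, 9.38 TPM (ΔE1), 0.611 TPM (ΔE3) and 3.10 TPM (ΔP4). It was at 20.8 and 21.4 TPM in CB wt, 5.54 TPM (ΔE2.5), 13.8 TPM (ΔE2.7) and 12.4 TPM (ΔP2.1), so the clones lay in the order seen for Krt8 in BC, and below wt in all 3 of CB. Its fitted log2 fold change was 1.23 ± 0.93 (SE) in BC KO and −0.92 ± 0.38 in CB KO (edgeR FDR 0.661 and 0.251). The more abundant members had positive values in CB KO, with 0.47 ± 0.33 (edgeR FDR 0.445) for Krt42 and 0.70 ± 0.19 (FDR 0.169) for Krt17, a keratin of stressed and basal epithelium. In CB wt against BC wt 2 of the 4 above 1 TPM in both lines were called higher (17.4% of such genes), Krt7 among them with a log2 fold change of 3.47.

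Of 25 epithelial junction and regulator genes, none of the 24 tested were called in either KO comparison, but 22 of 24 had a negative log2 fold change in CB KO, with a median of −0.45 against 0.01 over all genes, and 12 were lower at an unadjusted p under 0.05, where 10.5% of all genes were. In BC KO the median was −0.06 and 16 of 24 were negative. Desmoplakin (Dsp) was at 12.6 and 11.3 TPM in BC wt, 16.2 TPM (ΔE1), 1.505 TPM (ΔE3) and 12.01 TPM (ΔP4), and at 112 and 109 TPM in CB wt, 33.4 TPM (ΔE2.5), 47.4 TPM (ΔE2.7) and 68.6 TPM (ΔP2.1). Its fitted change in CB KO was −1.08 ± 0.28 (SE, edgeR FDR 0.167). E-cadherin (Cdh1) had −0.39 ± 0.17 (FDR 0.273) and Epcam −0.01 ± 0.10 (FDR 0.982), the latter with a mean of 328 TPM. In CB wt against BC wt 14 of 24 were called higher and 1 lower, with a median of 1.16, all of them above 1 TPM in both lines (17.4% and 13.4% of such genes).

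Non-epithelial filaments were read for comparison. None of the 5 (Vim, Des, Nes, Lmna and Lmnb1) were called in either KO comparison. Vimentin (Vim) was at 165 and 162 TPM in BC wt, 111 TPM (ΔE1), 151 TPM (ΔE3) and 84.2 TPM (ΔP4), and at 435 and 447 TPM in CB wt, 218 TPM (ΔE2.5), 245 TPM (ΔE2.7) and 763 TPM (ΔP2.1). It was therefore lower than wt in ΔE1, where Krt8 was higher, and highest in ΔP2.1.

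Markers of other cell types also differed between libraries. The summed level of 12 fibroblast markers, which could come from feeder cells, was 44.1 and 40.9 TPM in BC wt, 32.1 TPM (ΔE1), 23.6 TPM (ΔE3), 28.8 TPM (ΔP4), 112 and 104 TPM in CB wt, 37.9 TPM (ΔE2.5), 49.8 TPM (ΔE2.7), 157 TPM (ΔP2.1), and 81.9 and 81.0 TPM in female cells. In a library 3 to 9 of the 12 were above 1 TPM and 0 to 2 had no reads. In the CB cross Col1a1 was the most abundant in wt (56.3 and 52.2 TPM), in ΔE2.7 (19.9 TPM) and in ΔP2.1 (102 TPM), and Thy1 in ΔE2.5 (16.1 TPM). The sum was below both wt libraries in ΔE3, ΔE2.5 and ΔE2.7, as the 3 keratins were. It was also below wt in ΔE1 and ΔP4, where the keratins were above wt, and above wt in ΔP2.1, where the keratins were below. Single genes differed among themselves. In ΔP2.1 Col1a1, Col3a1 (13.1 TPM against 7.93 and 7.25 TPM), Lox, Lum and Prrx1 (the last 3 named after their values were seen) were above both wt libraries, but Thy1 (10.7 TPM), Col1a2 (1.41 TPM against 2.83 and 2.76 TPM) and Dcn (3.26 TPM against 4.78 and 4.29 TPM) were below both. Twist1 (10.7 TPM against 12.1 and 11.6 TPM) and Pdgfrb (1.28 TPM against 1.53 and 1.45 TPM), also named after their values were seen, were below both too. In ΔE1 Thy1 was below wt (10.3 TPM against 20.6 and 19.7 TPM) and Col1a1 above it (10.3 TPM against 9.24 and 7.45 TPM). In female cells Thy1 made up 67.4 and 66.3 TPM, and of the 3 fibroblast markers above 1 TPM in both sexes 1 was called higher and 1 lower than in male BC wt cells. The part of fibroblast RNA in the levels of the 8 genes was not tested.

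The 9 markers of mesoderm and posterior streak summed to 19.8 and 20.1 TPM in BC wt, 12.1 to 17.5 TPM in the BC clones, 9.98 and 9.31 TPM in female cells, 152 and 150 TPM in CB wt, 47.7 TPM (ΔE2.5), 242 TPM (ΔE2.7) and 44.7 TPM (ΔP2.1). In the CB libraries T (Brachyury) made up most of the sum, with 119 and 117 TPM in CB wt, 35.2 TPM (ΔE2.5), 196 TPM (ΔE2.7) and 26.0 TPM (ΔP2.1). ΔE2.7, which had the highest Cdx2, thus also had the highest T, and Cdx2 and Hand1 are known in the posterior mesoderm as well as in the trophoblast. Which cells carried Cdx2 in ΔE2.7 was not tested.

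The 9 primitive endoderm markers summed to 54.7 and 53.9 TPM in CB wt and 30.9 and 29.8 TPM in BC wt, with 32.9 to 41.5 TPM in CB clones, 25.4 to 32.0 TPM in BC clones, and 17.4 and 16.9 TPM in female cells. Dab2 was the most abundant in every library, Ttr had no reads in any library and Afp at most 0.0515 TPM. The 5 markers of stratified epithelium summed to 5.42 to 7.27 TPM in all 12 libraries, with Krt10 above 3 TPM in each and Krt5 at most 0.274 TPM. The 9 ES cell markers summed to 8706 and 7460 TPM in BC wt and 6216 and 6127 TPM in CB wt, with 7243 to 10106 TPM in BC clones and 6563 to 7263 TPM in CB clones, and to 17405 and 16324 TPM in female cells. None of the tested genes in these 4 lists and the fibroblast list were called in either KO comparison. At an unadjusted edgeR p under 0.05, 5 of 9 ES cell markers were higher and 0 lower in BC KO (median log2 fold change 0.60). Of all genes, 6.56% were higher and 4.49% lower. In CB KO 2 of 9 were higher and 0 lower (median 0.26), where 10.0% of all genes were higher and 10.5% lower. Over genes above 1 TPM in both lines, CB wt against BC wt called 4 of 6 fibroblast markers higher and 1 (Thy1) lower. It called 3 of 4 mesoderm markers, 1 of 4 endoderm markers and 1 of 2 stratified epithelium markers higher, and 3 of 9 ES cell markers lower (17.4% of such genes higher and 13.4% lower).

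**Figure D5:**
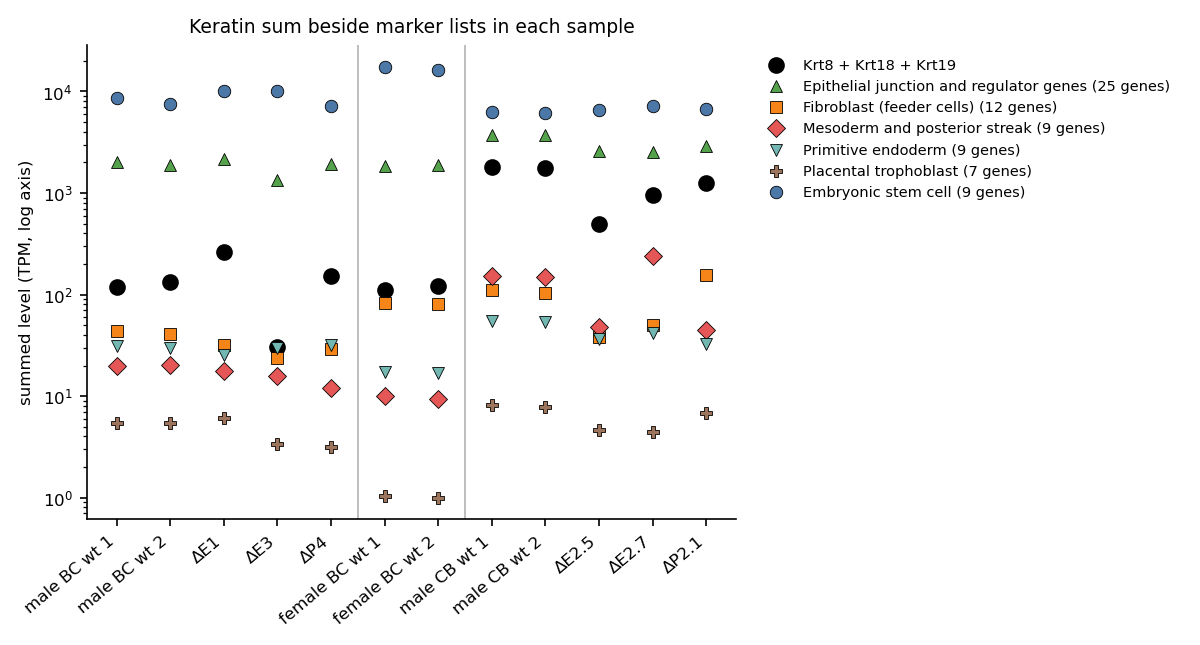
Summed level in TPM (log axis) of Krt8, Krt18 and Krt19 and of 6 gene lists in each of the 12 libraries, with vertical lines between male BC, female BC and male CB libraries. The keratin sum runs from 30.2 TPM (ΔE3) to 1787 TPM in CB wt replicate 1, and the placental sum stays at or under 8.11 TPM.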

How the data were processed

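The authors aligned 75 bp single-end reads with TopHat 2.0.14 and Bowtie2 2.2.5 to mm10 and to a pseudo-cast genome carrying cast SNPs, kept unique alignments with MAPQ of at least 30, and deposited estimated counts per gene and sample: either genome, each genome alone, and reads with BL6 or cast SNPs. The counter is not given in the sources used here. The estimated counts were rounded, and TPM used transcript lengths from GENCODE M21 (23310 of 24346 genes matched by symbol, the median of 2285 bp for the rest). edgeR 4.0.16 (TMM, quasi-likelihood, Benjamini-Hochberg over all genes above 1 TPM in at least 1 library of a comparison) called genes at FDR under 0.05 and at least 1.5-fold, without Sh3kbp1, Map3k15 and Pdha1 in BC (deleted with Kdm6a in ΔE1 and ΔE3). DESeq2 1.42.0 was an alternative, and both were tested on simulated data. The groups came from the labels. The genes and lists were chosen with earlier results of these data known. Genes of a list were named when called in a KO comparison, otherwise the 3 most abundant and the 2 with the strongest change. Promoter motifs were not analysed here. A gene of 1 list that the rule names is not reported here. Precision follows depth (49975599 to 89070402 reads).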

Additional observations from a re-analysis of the deposited data

Results flagged for a closer look

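In 4 of the 89 listed genes tested, all 3 BC clones lay above both of their wt libraries and all 3 CB clones below both of theirs, a pattern that 7.23% of all 14297 genes showed. The difference of the log2 ratios of the mean TPM of KO and wt (BC minus CB) was 1.30 for Tead4, 1.501 for Dlx3, 2.48 for Foxa2 and 0.66 for Sox7. The edgeR interaction of cross and KO passed for none of the 4, with FDR of 0.133 for Tead4, 0.186 for Dlx3, 0.143 for Foxa2 and 0.495 for Sox7.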

How the results depend on the processing

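None of the 7 genes tested was called in BC KO, CB KO or the interaction under any alternative run. Calls over all genes moved. With DESeq2 they were 155 higher and 105 lower in BC KO, 160 and 332 in CB KO, and 197 and 345 in the interaction. With the spread of all 12 samples they were 26 and 32, 28 and 26, and 37 and 76. With ΔE1 and ΔE3 averaged they were 5 lower in BC KO and 11 higher and 12 lower in the interaction. Leaving out 1 library gave 0 higher and 1 to 4 lower in BC KO, 0 to 362 and 0 to 566 in CB KO, and 3 to 146 and 0 to 160 in the interaction (highest without ΔP2.1). In ΔP2.1, 1 gene was past 1.5-fold higher with a pseudocount of 0.1, another transcript length or TMM-scaled CPM, and 0 lower with the last 2. Whether Cdx2 and Gata3 were counted in the BC clones also depended on the pseudocount. Leaving out 1 library turned the sign of log2 fold changes that had not passed. These ran in BC KO from −0.023 to 0.59 (Cdx2), −0.37 to 1.76 (Hand1), −0.61 to 0.64 (Krt8), −0.51 to 0.75 (Krt18) and −0.50 to 0.33 (Krt19). In CB KO they ran from −0.30 to 1.17 (Cdx2) and −0.21 to 0.46 (Gata3), and in the interaction from −0.56 to 0.90 (Cdx2), −0.55 to 0.23 (Gata3), −0.30 to 0.20 (Tfap2c) and −1.98 to 0.14 (Hand1). For Tfap2c they ran from −0.074 to 0.033 in CB wt against BC wt and −0.00084 to 0.14 in female against male BC wt.

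The replicate numbers of the wt groups were not treated as pairs in the main fits. The r of their deviations was 0.238 for male and female BC wt, 0.100 for male BC and CB wt and 0.0140 for female BC and CB wt. These values cannot show whether samples were paired. With a replicate block, 2758 genes were higher and 2067 lower in CB wt (2736 and 2037 without), and 3467 and 2816 in female cells (3445 and 2802 without). Correction of allele shares by the autosomal ratio moved 33 of 57 past their intervals. Tests on 2 wt libraries a line cannot tell library from line, and Elf5 was not detectable above 1 TPM.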

Other observations

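The 2 CB wt libraries, which were alike over most genes, differed in Rn45s, the 45S pre-ribosomal RNA, with 94300 and 596062 reads. The male BC wt pair had 197449 and 476451 reads and the female pair 229289 and 324724. Mesp1, an early mesoderm factor chosen here after its values were seen, was at 4.35 TPM in ΔE2.7 and at most 1.03 TPM in the other 11 libraries.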
